A study of Homo sapiens with 8 samples.

Results

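Accessible chromatin was compared between A2780 cells resistant to both cisplatin and paclitaxel and A2780 cells resistant to cisplatin alone. A2780 is an established human ovarian cancer cell line, cisplatin is a platinum drug that crosslinks DNA, and paclitaxel stabilises microtubules. The dual-resistant cells carry the treatment label cisplatin/paclitaxel (2 libraries) and the cisplatin-resistant cells the label cisplatin (2 libraries). Paclitaxel-resistant cells (2 libraries, label paclitaxel) and control cells without a drug label (2 libraries) completed the 8 libraries, and all 4 groups carry the genotype label WT. ATAC-seq measured accessibility through the Tn5 transposase, which cuts and tags open DNA. Peaks with at least 1 CPM (reads in a peak per 1000000 reads in peaks) in at least 2 of the 8 libraries were kept, which left 158698 of 159451 peaks on hg38, each about 1 kb wide. The 7717 peaks kept with exactly 2 such libraries had a median mean level of 1.24 CPM, and the 753 peaks left out had 0.638 CPM. The sources used here do not give whether the dual-resistant cells were derived from the cisplatin-resistant cells, whether each line is 1 clone and whether drug was present at collection. The labels do not tie the libraries to separate cultures, so p-values measure a spread between libraries that may be technical.

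Peaks of open chromatin mark promoters and enhancers, where transcription factors displace nucleosomes. A gain or loss of a peak shows a change of accessibility, and transcription was not measured here. Paclitaxel resistance is classically tied to drug export by the ABC transporter ABCB1, to changes of tubulin composition and to mitotic checkpoint genes, and cisplatin resistance to altered uptake and export, to glutathione and to DNA repair. AP-1 is a dimer of JUN and FOS family proteins that binds the letters TGANTCA and keeps many enhancers open.

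The promoter windows below are shown because their peaks were among the named ones and hold the letters that differed in frequency between the groups of promoters. Each window is RefSeq sequence of GRCh38.p14, runs 5′ to 3′ on the strand of the gene, covers 250 bases before and 50 bases after the listed start, and lies wholly inside its peak. The first 4 belong to promoters that were lower in dual-resistant cells, and capitals mark TGANTCA, the AP-1 letters.
SLFN12 (chr17:35433125-35433424, minus strand): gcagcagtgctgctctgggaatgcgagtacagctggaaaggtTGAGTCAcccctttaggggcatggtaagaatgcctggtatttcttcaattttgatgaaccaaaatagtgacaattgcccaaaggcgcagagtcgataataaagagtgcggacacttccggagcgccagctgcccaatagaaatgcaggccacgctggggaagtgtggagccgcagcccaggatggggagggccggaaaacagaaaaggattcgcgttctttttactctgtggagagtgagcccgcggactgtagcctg
ANKRD1 (chr10:90921038-90921337, minus strand): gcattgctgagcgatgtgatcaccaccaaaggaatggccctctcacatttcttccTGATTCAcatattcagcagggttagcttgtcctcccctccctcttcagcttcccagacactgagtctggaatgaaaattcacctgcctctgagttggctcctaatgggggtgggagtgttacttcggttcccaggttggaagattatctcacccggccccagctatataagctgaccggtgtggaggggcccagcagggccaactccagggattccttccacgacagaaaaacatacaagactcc
SRI (chr7:88226927-88227226, minus strand): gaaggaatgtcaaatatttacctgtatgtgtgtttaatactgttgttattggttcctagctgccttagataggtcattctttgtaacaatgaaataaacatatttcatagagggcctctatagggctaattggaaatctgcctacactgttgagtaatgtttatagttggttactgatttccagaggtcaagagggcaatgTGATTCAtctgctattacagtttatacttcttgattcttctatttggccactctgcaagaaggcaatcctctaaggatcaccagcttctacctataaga
POSTN (chr13:37598719-37599018, minus strand): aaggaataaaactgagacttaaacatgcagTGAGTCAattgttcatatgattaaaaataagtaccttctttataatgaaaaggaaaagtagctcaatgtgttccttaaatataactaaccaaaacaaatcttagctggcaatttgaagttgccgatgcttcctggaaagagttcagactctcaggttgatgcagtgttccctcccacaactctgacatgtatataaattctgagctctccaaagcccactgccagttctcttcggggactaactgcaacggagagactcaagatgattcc
The next 2 belong to promoters that were higher in dual-resistant cells and hold no TGANTCA on either strand, and capitals mark TAATTA, the core letters bound by many homeobox factors.
CTNNA3 (chr10:67696146-67696445, minus strand): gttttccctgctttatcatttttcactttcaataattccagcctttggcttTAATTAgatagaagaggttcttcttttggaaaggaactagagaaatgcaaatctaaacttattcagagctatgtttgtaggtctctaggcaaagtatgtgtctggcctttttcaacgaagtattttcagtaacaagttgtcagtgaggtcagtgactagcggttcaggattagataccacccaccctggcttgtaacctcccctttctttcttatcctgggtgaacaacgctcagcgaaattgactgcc
HAPLN1 (chr5:83720806-83721105, minus strand): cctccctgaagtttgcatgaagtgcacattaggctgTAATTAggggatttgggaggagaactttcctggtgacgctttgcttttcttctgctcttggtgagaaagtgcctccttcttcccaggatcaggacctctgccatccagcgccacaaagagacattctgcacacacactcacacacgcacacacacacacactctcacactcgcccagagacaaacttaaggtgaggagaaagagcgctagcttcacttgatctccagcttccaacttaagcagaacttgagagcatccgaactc
The AP-1 letters lie 208 bases before the start of SLFN12, 195 before ANKRD1, 49 before SRI and 220 before POSTN. A match of letters is a description and not a shown binding site.

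The dual-resistant and cisplatin-resistant chromatin differed over a large part of the peaks. By limma on log2(CPM + 0.5), 66334 of the 158698 peaks passed a Benjamini-Hochberg adjusted p of 0.05 (41.8%), 34800 higher (21.9%) and 31534 lower (19.9%) in dual-resistant cells. Of these, 23508 were at least 2-fold higher and 26978 at least 2-fold lower. In 66039 of the called peaks the dual-resistant libraries did not overlap the cisplatin-resistant ones. With 2 libraries a group a call favours such a separation, so this count adds no support to the calls. The balance of the directions depends on the scaling. Median-ratio scaling moved the median log2 difference of all peaks from 0.16 by -0.17 and gave 24991 peaks higher and 37272 lower, so that 40.1% of the called peaks were higher against 52.5% as reported. Cyclic loess scaling moved that median by -0.14 and gave 28430 higher and 31012 lower.

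Peaks called lower had a median of 0.989 and 0.967 CPM in the dual-resistant libraries, against 5.74 and 5.50 CPM in the cisplatin-resistant libraries, 0.971 and 1.01 CPM in paclitaxel-resistant and 1.30 and 1.29 CPM in control libraries. These peaks were chosen for the difference between the dual-resistant and cisplatin-resistant levels, so the levels are a description. Peaks called higher had a median of 5.56 and 5.37 CPM in dual-resistant libraries, against 1.80 and 1.75 CPM in cisplatin-resistant libraries, with 3.28 and 3.26 CPM in paclitaxel-resistant and 3.38 and 3.48 CPM in control libraries. Across all peaks, which are not independent replicates, the log2 values of a dual-resistant and a cisplatin-resistant library correlated at 0.549 to 0.563, the lowest of the 6 pairs of groups. The dual-resistant libraries correlated with control libraries at 0.816 to 0.826 and with paclitaxel-resistant libraries at 0.797 to 0.804, while the 2 libraries of a group correlated at 0.926 to 0.933. Reads in peaks ranged over 7693492 to 9304798 per library, so 3 reads, the limit that a count of 0 allows, correspond to 0.322 to 0.390 CPM (counting error only).

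Some peaks were near 0 in one line and strong in the other. At 79 peaks both dual-resistant libraries reached 10 CPM while neither cisplatin-resistant library had more than 3 reads. These peaks had a median of 14.2 and 14.3 CPM in dual-resistant libraries, against 0.225 and 0.234 CPM in cisplatin-resistant libraries, and 51 lay outside genes, 25 inside genes and 3 at promoters. The opposite pattern held at 144 peaks, with a median of 0.247 and 0.215 CPM in dual-resistant libraries, against 14.0 and 13.8 CPM in cisplatin-resistant libraries. Of those, 83 lay outside genes, 56 inside genes and 5 at promoters. At the 144 peaks the paclitaxel-resistant libraries had a median of 0.486 and 0.450 CPM and the control libraries 0.650 and 0.515 CPM. Over all tested peaks, 25.5% of those outside genes were called higher and 20.8% lower, against 18.8% higher and 14.6% lower at promoters.

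A promoter peak was the strongest tested peak that overlapped 1 kb either side of the start of a protein-coding gene. Where no start was listed, either end of the gene span was used. Of 19970 genes 15464 had such a peak, which need not cover the start itself. For the 3151 genes placed by a span end, the peak may lie at the far end of the gene and not at its start. Besides the genes marked below, these include ABCB4, ABCG1, BMP7, CASP10, ESRP1, HOXB7, LIN28A, MYC, SLC7A11, SOX9, TNFRSF10A and TPPP3. Of the 15464 promoters 5563 were called (36.0%). In dual-resistant cells 2967 promoters were higher (19.2% of those tested) and 2596 were lower (16.8%), of which 822 (5.32%) and 838 (5.42%) changed at least 2-fold. Under median-ratio scaling 1532 promoters were higher and 4530 lower.

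The promoters with the largest gains belonged to a zinc finger gene, a neuropeptide gene and genes of cell adhesion and matrix. NTS, the precursor of the neuropeptide neurotensin (chr12:85873784-85874784), had 41.8 and 41.8 CPM in dual-resistant libraries, against 1.13 and 0.234 CPM in cisplatin-resistant libraries, a log2 difference of 5.28 (SE 0.25, adjusted p 1.59e-35). ZNF69, a KRAB zinc finger gene (chr19:11887409-11888409), had 20.4 and 31.2 CPM in dual-resistant libraries, against 0 and 0.234 CPM in cisplatin-resistant libraries (log2 5.41, SE 0.42). Its cisplatin-resistant libraries were at or under the limit that a count of 0 allows, so the fitted value depends on the pseudocount. CTNNA3, which encodes alpha-T-catenin of cell junctions (chr10:67695476-67696476), had 22.9 and 23.3 CPM in dual-resistant libraries, against 0.225 and 0.234 CPM in cisplatin-resistant libraries (log2 5.02). HAPLN1, a link protein that ties hyaluronan to proteoglycans (chr5:83720665-83721665), had 38.1 and 37.8 CPM in dual-resistant libraries, against 2.25 and 1.52 CPM in cisplatin-resistant libraries (log2 4.03, SE 0.18). COL6A3, a chain of collagen VI (chr2:237413618-237414618), had 16.4 and 14.1 CPM in dual-resistant libraries, against 0 and 0.468 CPM in cisplatin-resistant libraries (log2 4.50). CDH7, a classical cadherin (chr18:65749337-65750337), had 22.8 and 20.5 CPM in dual-resistant libraries, against 0.450 and 0.468 CPM in cisplatin-resistant libraries (log2 4.53).

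RIN2, a regulator of RAB5 (log2 4.60), MEI4, a meiotic recombination factor (4.43), and the peak shared by C5orf52 and SOX30 (4.32) were also among the 10 largest gains. RIN2 had no listed start, so its peak lies at an end of its span and may not be its promoter. NTS, CTNNA3, RIN2, MEI4 and HAPLN1 were also high in the paclitaxel-resistant libraries, at 34.1 and 29.7 CPM for NTS, 27.8 and 26.5 CPM for CTNNA3 and 48.0 and 50.3 CPM for HAPLN1. ZNF69, CDH7 and COL6A3 stayed at or below 1.46 CPM in both paclitaxel-resistant libraries and at or below 1.93 CPM in both control libraries. At these 3 promoters the dual-resistant libraries were the only ones above 14 CPM.

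**Figure D1:**
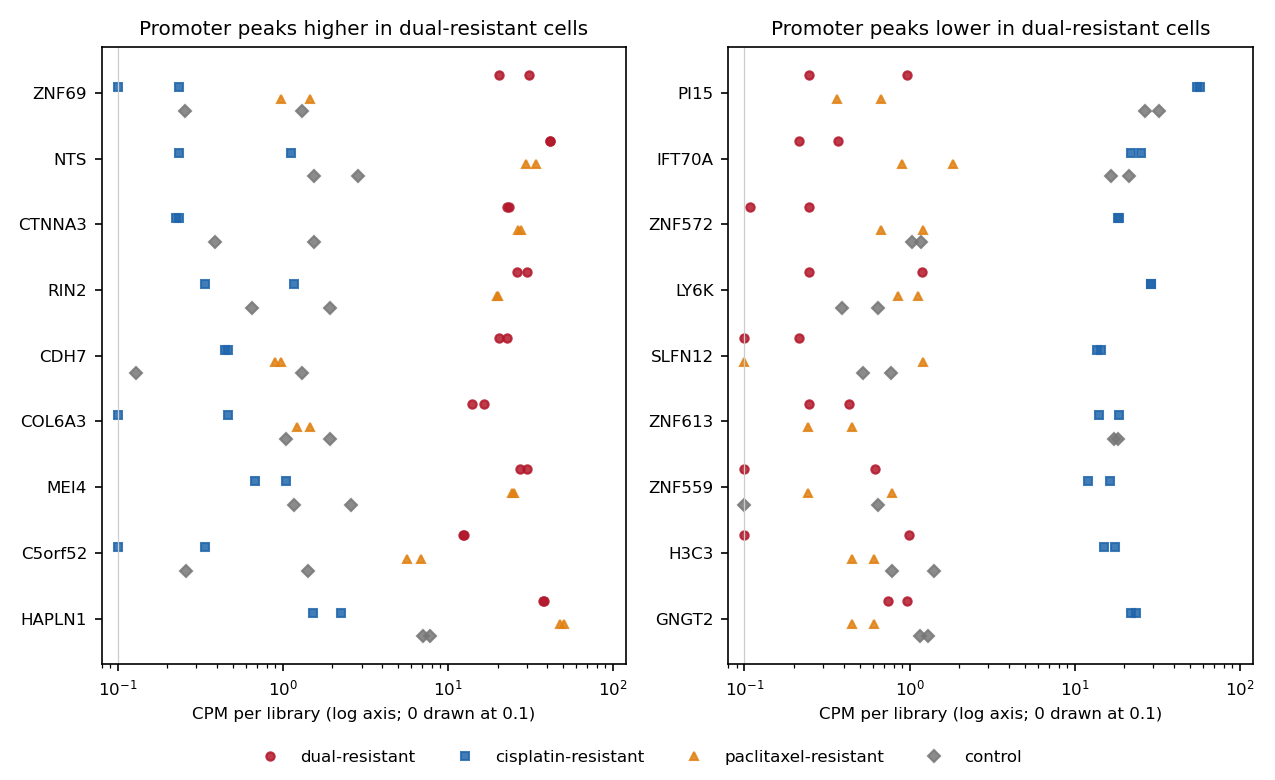
Points give the CPM of each of the 8 libraries on a log axis for 9 of the 10 promoter peaks with the largest gains (left) and 9 of the 10 with the largest losses (right) in dual-resistant cells. The peaks of RIN2, PI15, LY6K, ZNF572, ZNF559 and GNGT2 were placed by an end of the gene span. At ZNF69, CDH7 and COL6A3 the dual-resistant points alone lie to the right, and at ZNF572, LY6K, SLFN12, ZNF559, H3C3 and GNGT2 the cisplatin-resistant points alone do.

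The largest loss was at PI15, a secreted peptidase inhibitor (chr8:74823518-74824518), with 0.247 and 0.967 CPM in dual-resistant libraries, against 55.3 and 57.6 CPM in cisplatin-resistant libraries (log2 -5.76, SE 0.27, adjusted p 1.55e-36). IFT70A, a subunit of the intraflagellar transport machinery of cilia (chr2:177618323-177619323), had 0.371 and 0.215 CPM in dual-resistant libraries, against 25.3 and 22.0 CPM in cisplatin-resistant libraries (log2 -4.93). Both were also open in control cells, PI15 at 32.4 and 26.6 CPM and IFT70A at 16.6 and 21.2 CPM. LY6K, a surface antigen of testis and tumours (chr8:142699373-142700373), had 0.247 and 1.18 CPM in dual-resistant libraries, against 29.1 and 28.9 CPM in cisplatin-resistant libraries (log2 -4.72). SLFN12, a Schlafen family gene (chr17:35432765-35433765), had 0 and 0.215 CPM in dual-resistant libraries, against 14.5 and 13.6 CPM in cisplatin-resistant libraries (log2 -4.60).

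The zinc finger genes ZNF572 (log2 -4.81), ZNF613 (-4.32) and ZNF559 (-4.28, a peak shared with the readthrough gene ZNF559-ZNF177), the G protein gamma subunit gene GNGT2 (-4.10) and the histone gene H3C3 (-4.28) were also among the 10 largest losses. H3C3 belongs to a multigene family, and the value is uncertain where reads could map to several copies. These 9 promoters were at or below 1.82 CPM in both paclitaxel-resistant libraries. Control libraries were open at PI15, IFT70A and ZNF613 (17.4 and 18.4 CPM) and at or below 1.42 CPM at the other 6 of the 9. At those 6 promoters the cisplatin-resistant libraries alone were above 10 CPM. The peaks of PI15, LY6K, ZNF572, ZNF559 and GNGT2 were placed by an end of the span and may not lie at the start.

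Away from promoters, the strongest gain was a peak inside CACNA1C, which encodes a voltage-gated calcium channel (chr12:2519882-2520882). It had 193 and 164 CPM in dual-resistant libraries, against 1.46 and 0.234 CPM in cisplatin-resistant libraries, and 14.0 and 15.8 CPM in paclitaxel-resistant libraries (log2 7.21, SE 0.24). A peak inside DNM3, a dynamin of synapses (chr1:172091263-172092263), had 52.1 and 42.7 CPM in dual-resistant libraries, against 0.450 and 0.234 CPM in cisplatin-resistant libraries (log2 5.83). A peak 10.1 kb from the span of COL6A3 (chr2:237313371-237314371) had 40.2 and 26.0 CPM in dual-resistant libraries, against 0.338 and 0 CPM in cisplatin-resistant libraries. Intergenic peaks at chr4:180658890-180659890 (log2 5.92) and chr5:4733757-4734757 (5.73) completed the 5 strongest gains. The strongest loss, at chr10:53699587-53700587 and 103 kb from the span of the protocadherin gene PCDH15, had 0.495 and 0.322 CPM in dual-resistant libraries, against 69.9 and 69.9 CPM in cisplatin-resistant libraries (log2 -6.28). Besides the PI15 promoter, the other strong losses were 68.9 kb from PI15 (log2 -5.69), at chr1:95984639-95985639 (-5.68) and inside MAEA, a subunit of a ubiquitin ligase complex (-5.63). The peak at chr1:95984639-95985639 was open in the other 3 groups, at 28.5 to 40.8 CPM, and had 0.495 and 0 CPM in dual-resistant libraries.

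Distal peaks, assigned to the nearest gene start (or span end where no start was listed) within 100 kb, moved together around several genes. All 57 distal peaks of PI15 were lower, with a median log2 difference of -3.34, and none was higher. SPRED1, an inhibitor of RAS to ERK signalling, had 47 of 50 distal peaks lower (median -2.04) and 0 higher, while its promoter was lower at -0.43, a call lost without dual-resistant replicate 1 (-0.29) and turned to 0.31 once the regional median was subtracted. REEP3, which encodes a protein of the endoplasmic reticulum, had 70 of 118 lower and 0 higher. Around HAPLN1, 57 of 59 distal peaks were higher (median 2.50) and 0 lower. Around PAX2, a transcription factor of kidney and Müllerian duct development, 61 of 73 were higher (median 1.89) and 2 lower. SIPA1L2, a RAP GTPase regulator, had 48 of 53 higher (median 2.15) and 1 lower. The SIPA1L2 promoter was higher by 1.12, a call lost once the regional median was subtracted (0.12, adjusted p 0.583). These 6 genes were chosen for their number of called distal peaks, against a background of 41.8% of all peaks called.

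Few promoters of drug export genes passed the test, while 36.0% of all promoters did. Over all promoters 19.2% were higher and 16.8% lower, the background for the counts here and in each gene list below. At ABCB1, the efflux pump that carries paclitaxel out of cells, the promoter peak (chr7:87714059-87715059) had 2.23 and 2.79 CPM in dual-resistant libraries, against 1.24 and 0.935 CPM in cisplatin-resistant libraries. The middle of this peak lies at -1264 bases from the listed start, so the peak does not cover the start itself. The log2 difference of 0.92 (SE 0.40) missed the threshold (adjusted p 0.0512). Control libraries had 1.69 and 3.86 CPM and paclitaxel-resistant libraries 2.91 and 3.37 CPM at this peak. Of the 3 distal peaks of ABCB1 0 were higher and 0 lower. The peak of RUNDC3B, the gene that overlaps ABCB1, was higher by 0.44, with 25.8 and 28.1 CPM in dual-resistant libraries, against 15.4 and 25.1 CPM in cisplatin-resistant libraries, and 106 and 116 CPM in paclitaxel-resistant libraries. Among 14 measured genes of the 7q21 neighbourhood of ABCB1, 3 were higher and 2 lower, and 2 and 7 once regional medians were subtracted. SRI, which encodes the calcium-binding protein sorcin, was lower, with 0.866 and 0.645 CPM in dual-resistant libraries, against 10.5 and 11.8 CPM in cisplatin-resistant libraries (log2 -3.22, SE 0.43). STEAP4, a metalloreductase gene, was lower at -1.64, but the call was lost without cisplatin-resistant replicate 1 (-1.22) or dual-resistant replicate 2 (-1.14). STEAP1 and STEAP2, its relatives, were higher by 0.82 and 0.92. ABCB4, a phospholipid exporter, differed by -0.19 at its promoter (adjusted p 0.629). Of its 64 distal peaks 18 were higher and 0 lower (median 0.62), against 21.9% higher and 19.9% lower over all peaks. Their median level was 1.48 and 1.13 CPM in dual-resistant libraries, against 0.563 and 0.702 CPM in cisplatin-resistant libraries. Paclitaxel-resistant libraries had 4.92 and 4.27 CPM there. ABCG2, another drug exporter, differed by -0.09 (adjusted p 0.881). ABCG1, a cholesterol exporter, was lower at -1.18 (adjusted p 0.0390), a call lost without any 1 of the 4 libraries (-1.41 to -0.95), under loess scaling (-0.42) and by edgeR (-1.57). Of 20 ABC transporter promoters outside the 7q21 neighbourhood, ABCG1 among them, 1 was higher and 2 were lower. These counts became 1 and 8 under median-ratio scaling, and ABCC2 had no tested promoter peak.

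Tubulins form the microtubules that paclitaxel stabilises. Of 18 measured tubulin genes 0 were higher and 5 lower, with a median log2 difference of -0.15 against 0.05 over all promoters. Under the 3 other scalings tried, 0 were higher and 6 to 9 lower, and subtracting regional medians gave 1 higher and 4 lower. TUBB3, the neuronal beta-tubulin often linked to taxane resistance, had 16.4 and 17.0 CPM in dual-resistant libraries, against 23.3 and 26.8 CPM in cisplatin-resistant libraries (log2 -0.57, SE 0.16, adjusted p 0.00189). TUBG1, the gamma-tubulin of centrosomes, was lower by a log2 difference of -0.67 and the delta-tubulin gene TUBD1 by -0.78. TUBB1, the platelet beta-tubulin, had 3.34 and 2.26 CPM in dual-resistant libraries, against 1.80 and 1.64 CPM in cisplatin-resistant libraries (log2 0.55, adjusted p 0.269). Of 20 spindle and checkpoint genes 6 were higher, among them PLK1 (0.48) and BUB1B (0.48), and 1 was lower, KIF11 (-0.30). This split turned to 1 higher and 7 lower under median-ratio scaling. Of 22 microtubule-associated genes 2 were higher and 3 lower, and median-ratio scaling gave 1 and 7. TPPP3, a tubulin polymerisation promoter, was higher by 1.22, and MAPT and MAP4, which stabilise microtubules, were lower at -0.69 and -0.48.

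Genes of platinum handling and of glutathione had called promoters in both directions. The copper transporter SLC31A1, which takes up platinum, had 48.96 and 49.97 CPM in dual-resistant libraries, against 51.7 and 50.6 CPM in cisplatin-resistant libraries (log2 -0.05, adjusted p 0.729). This peak is shared with FKBP15. The exporter ATP7B (a peak shared with ALG11) differed by 0.11 (adjusted p 0.422) and GSTP1, a glutathione transferase, by 0.12 (adjusted p 0.542). Of 15 genes of platinum uptake, export and binding 2 were higher and 1 lower, and median-ratio scaling gave 1 and 3. SLC7A11, the cystine importer that feeds glutathione synthesis, had 7.91 and 6.66 CPM in dual-resistant libraries, against 39.4 and 45.5 CPM in cisplatin-resistant libraries (log2 -2.46, SE 0.18, adjusted p 4.39e-22). It was also low in paclitaxel-resistant libraries, at 2.91 and 2.47 CPM, and high in control libraries, at 31.7 and 37.1 CPM. Of 29 glutathione and NRF2 genes 4 were higher and 8 lower, while median-ratio scaling gave 2 and 13 and subtracting regional medians 8 and 7. The lower ones included GSTM3 (-2.63), TXNRD1, a thioredoxin reductase (-2.58), and NFE2L2, which encodes NRF2 itself (-0.44). MGST1, a microsomal transferase, was higher by 1.15 but differed by -0.34 once its regional median was subtracted, and AKR1C2 was higher by 1.46. AKR1C2 is an aldo-keto reductase with near-identical relatives, so reads could be shared and its value is uncertain.

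Among 32 genes of crosslink, excision and homologous repair 5 were higher and 7 lower, and median-ratio scaling left 0 higher and 13 lower. SLFN11, which blocks stalled replication forks and sensitises cells to platinum, had 0.618 and 2.26 CPM in dual-resistant libraries, against 6.08 and 5.73 CPM in cisplatin-resistant libraries (log2 -1.87, SE 0.37). BRCA1, a homologous recombination gene, had 60.6 and 51.2 CPM in dual-resistant libraries, against 101 and 101 CPM in cisplatin-resistant libraries (log2 -0.85). Of 10 mismatch repair genes 2 were higher and 3 lower, none by 2-fold, and median-ratio scaling gave 1 and 5. Of 20 genes of the p53 pathway 3 were higher and 6 lower, with 1 and 8 under median-ratio scaling and 2 and 3 once regional medians were subtracted. CDKN1A, the p53 target that arrests the cell cycle, differed by -0.02 (adjusted p 0.928). Of 25 apoptosis regulators 2 were higher and 7 lower, and the other scalings gave 1 to 3 higher and 8 lower. TNFRSF10A, the death receptor for TRAIL, had 0.618 and 0.430 CPM in dual-resistant libraries, against 6.19 and 7.02 CPM in cisplatin-resistant libraries (log2 -2.80). BCL2A1, an anti-apoptotic BCL2 relative, was lower (-2.44) and CASP10, an initiator caspase, was higher (1.95, SE 0.29). Of 21 G1 and S phase genes 2 were higher and 4 lower, which became 0 and 7 under median-ratio scaling and 4 and 0 once regional medians were subtracted.

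More of the measured ERK feedback and AP-1 promoters were called lower than higher, against 16.8% lower and 19.2% higher over all promoters. Of 19 ERK feedback genes 0 were higher and 9 lower, with a median of -0.33. The other scalings gave 0 or 1 higher and 9 to 12 lower, and subtracting the median of each 5 Mb region gave 2 higher and 7 lower. DUSP6, the phosphatase that switches ERK off, had 26.1 and 25.6 CPM in dual-resistant libraries, against 49.1 and 52.7 CPM in cisplatin-resistant libraries (log2 -0.96, SE 0.15). ETV4, an ETS factor induced by ERK, and SPRED2, a relative of SPRED1, were lower at -0.91 and -0.89. Of 23 AP-1 and immediate early genes 2 were higher and 6 lower, with 2 and 10 under median-ratio scaling and 1 and 5 once regional medians were subtracted. The median log2 difference of this list was -0.07, against 0.05 over all promoters. JUN, an AP-1 subunit, had 21.3 and 21.8 CPM in dual-resistant libraries, against 58.1 and 58.5 CPM in cisplatin-resistant libraries, and 30.2 and 27.8 CPM in paclitaxel-resistant and 23.27 and 19.95 CPM in control libraries (log2 -1.41, SE 0.13, adjusted p 4.88e-17). FOSL1 and FOSL2, which pair with JUN, were lower at -0.86 and -0.67, and EGR2, an early growth response factor, at -1.12. The EGR2 call was lost once its regional median was subtracted (-0.36, adjusted p 0.0527). MYC, a growth regulator, was lower at -0.90 but at 0.18 once the median of its region of chromosome 8 was subtracted. MAF, a relative of AP-1 that binds longer sites, was higher by 1.41.

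Of 20 Hippo pathway genes and YAP targets 2 were higher and 5 lower, with 1 and 10 under median-ratio scaling, 1 and 9 under loess scaling and 5 and 8 once regional medians were subtracted. ANKRD1, a YAP target, had 0.618 and 0.752 CPM in dual-resistant libraries, against 15.5 and 11.7 CPM in cisplatin-resistant libraries (log2 -3.56, SE 0.41). CCN2, another YAP target, had 3.71 and 4.62 CPM in dual-resistant libraries, against 19.5 and 22.1 CPM in cisplatin-resistant libraries (log2 -2.19), and YAP1 itself was lower at -0.77. Of 18 NF-kB and chemokine genes 2 were higher and 6 lower, and 2 and 4 once regional medians were subtracted. The chemokine genes CXCL1 and CXCL2 were lower at -1.67 and -1.54, and the signalling adaptor gene TRAF1 was higher by 1.58, at 11.7 and 11.8 CPM in dual-resistant libraries, against 3.15 and 4.09 CPM in cisplatin-resistant libraries. Of 40 receptor tyrosine kinases 10 were higher and 7 lower, a balance that turned to 5 and 9 under median-ratio scaling and to 6 and 9 under loess scaling, and to 7 and 8 once regional medians were subtracted. The 2 PDGF receptors moved in opposite directions. PDGFRA had 45.7 and 44.7 CPM in dual-resistant libraries, against 18.9 and 18.2 CPM in cisplatin-resistant libraries (log2 1.26, SE 0.15). PDGFRB had 5.07 and 5.48 CPM in dual-resistant libraries, against 25.9 and 26.3 CPM in cisplatin-resistant libraries (log2 -2.20, SE 0.23).

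Of 32 TGF-beta and BMP genes 6 were higher and 6 lower, with 4 and 9 under median-ratio scaling and 3 and 9 under loess scaling. TGFBR2, the type II receptor (a peak shared with an uncharacterised locus, chr3:30606042-30607042), had 1.11 and 1.83 CPM in dual-resistant libraries, against 21.8 and 24.2 CPM in cisplatin-resistant libraries (log2 -3.60, SE 0.28). The ligand genes TGFB2 and INHBA were lower (-1.11 and -1.67), and BMP7, a BMP ligand, was higher, with 16.7 and 16.4 CPM in dual-resistant libraries, against 5.18 and 5.85 CPM in cisplatin-resistant libraries (log2 1.51). Of 39 WNT genes 8 were higher and 6 lower, which turned to 6 and 11 under median-ratio scaling and to 4 and 8 under loess scaling. WNT5A, a ligand of the non-canonical branch, was lower at -2.15 (SE 0.36), and WNT16, another ligand, was higher by 1.07, a call lost once its regional median was subtracted (0.56, adjusted p 0.126). Of 13 Hedgehog genes 4 were higher and 4 lower, with 1 and 5 under median-ratio scaling and 2 and 2 once regional medians were subtracted. BOC, a Hedgehog co-receptor, had 19.04 and 17.84 CPM in dual-resistant libraries, against 2.70 and 3.04 CPM in cisplatin-resistant libraries (log2 2.49), and all 20 of its distal peaks were higher. Of 23 Notch genes 4 were higher and 3 lower, while median-ratio scaling gave 2 and 6 and loess scaling 1 and 4.

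Antigen presentation and interferon genes did not move as 1 block. Of 19 antigen presentation genes 3 were higher and 7 lower, and 5 and 3 once regional medians were subtracted. HLA-F, a non-classical class I chain, had 0.618 and 1.18 CPM in dual-resistant libraries, against 6.75 and 5.38 CPM in cisplatin-resistant libraries (log2 -2.25, SE 0.45), and HLA-G, another such chain, was lower at -1.66. Class I genes are near copies of each other, so reads may be split among them and these values are uncertain. B2M, the class I light chain, was higher by 0.53, and CD74, the class II invariant chain, was higher, with 25.1 and 23.5 CPM in dual-resistant libraries, against 7.88 and 8.77 CPM in cisplatin-resistant libraries (log2 1.49). Of 38 interferon-stimulated genes 12 were higher and 7 lower, but median-ratio scaling gave 6 and 10 and loess scaling 8 and 8. BST2, which tethers virions at the cell surface (a peak shared with MVB12A), was higher by 1.34, and IFI16, a DNA sensor, by 1.77. The peak shared by CMPK2 and RSAD2 (-2.11) and that of IFIT3 (-1.53), all induced by interferon, were lower.

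**Figure D2:**
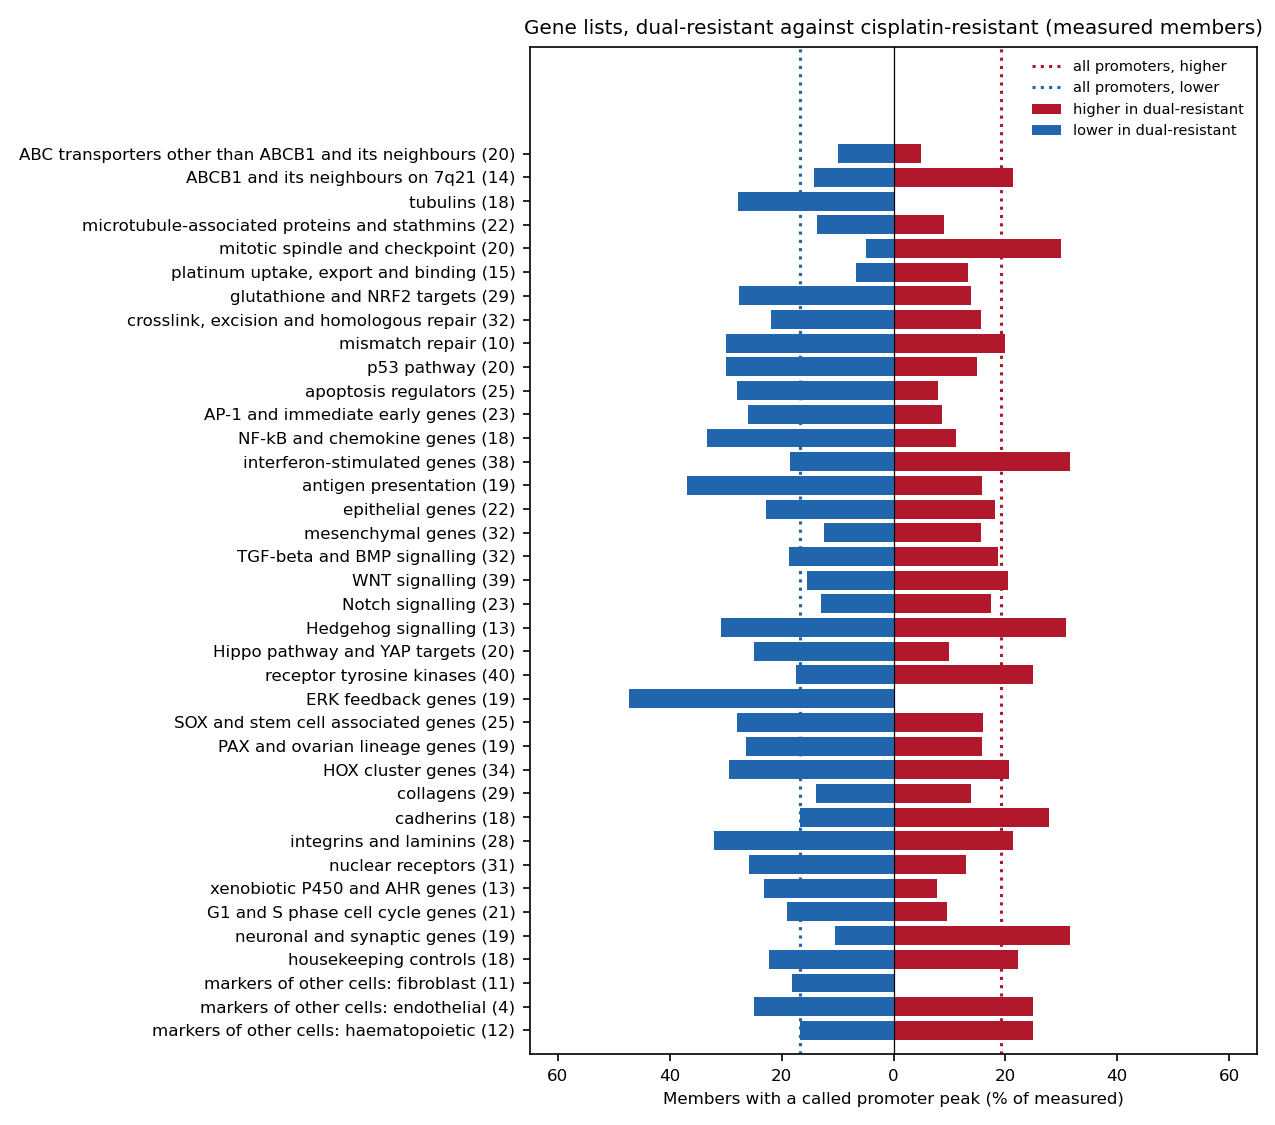
Bars give the percentage of measured members of each gene list whose promoter peak was called lower (left) or higher (right) in dual-resistant cells, with the number of measured members in brackets. Dotted lines mark the 16.8% lower and 19.2% higher over all promoters, and the ERK feedback, tubulin and fibroblast marker lists have bars on the lower side only, although subtracting regional medians gave 2, 1 and 2 higher members in these lists.

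The HOX clusters, which hold transcription factors of body position, differed by cluster. Of 34 measured HOX promoters 7 were higher and 10 lower. In HOXD 6 of 8 were higher and 0 lower, with a median of 1.46. HOXD10 had 22.1 and 23.9 CPM in dual-resistant libraries, against 5.40 and 6.78 CPM in cisplatin-resistant libraries (log2 1.84, SE 0.21). The 260 peaks of the 5 Mb around HOXD had a median of 1.03, and after this was subtracted 1 HOXD promoter was called higher and 0 lower. In HOXA 4 of 8 were lower and 0 higher, and HOXA4 had 0.247 and 1.505 CPM in dual-resistant libraries, against 5.51 and 4.09 CPM in cisplatin-resistant libraries (log2 -2.10, SE 0.43). In HOXB 5 of 10 were lower, HOXB7 and HOXB8 through 1 shared peak (-1.76), and 0 higher. After the regional median was subtracted, 2 HOXB promoters were higher and 2 lower. HOXC had 1 higher and 1 lower of 8 genes, which share 6 peaks, and the number higher was 4 under quantile scaling and 3 under loess scaling.

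**Figure D3:**
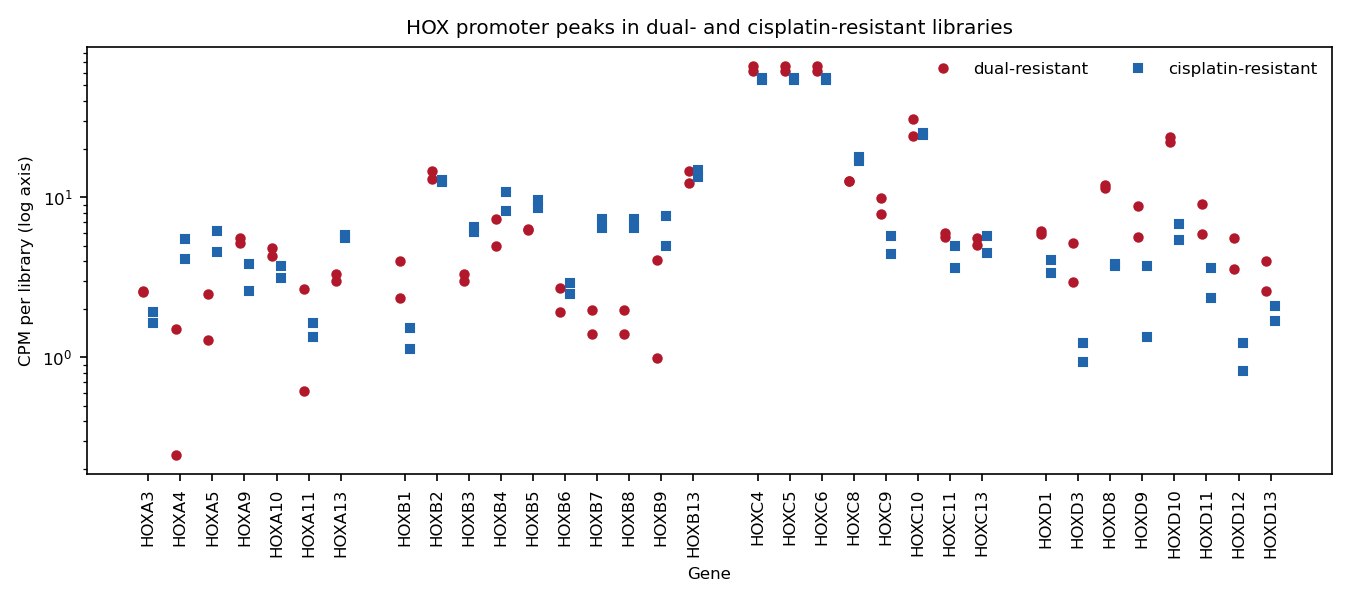
Points give the CPM of the dual-resistant and cisplatin-resistant libraries on a log axis for measured HOX promoters, grouped by cluster. The HOXD promoters lie higher in the dual-resistant libraries, 6 of 8 by the test and 1 of 8 once the regional median was subtracted, and HOXA4 lies lower.

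Of 19 PAX and ovarian lineage genes 3 were higher and 5 lower, and 1 and 5 once regional medians were subtracted. PAX2 had 9.15 and 12.3 CPM in dual-resistant libraries, against 0.900 and 1.17 CPM in cisplatin-resistant libraries (log2 2.86, SE 0.29), and control libraries had 14.8 and 11.8 CPM. FOXL2, a factor of ovarian granulosa cells, had 10.8 and 11.4 CPM in dual-resistant libraries, against 32.3 and 31.7 CPM in cisplatin-resistant libraries (log2 -1.49), and the paclitaxel-resistant and control libraries had 30.5 to 37.4 CPM. The FOXL2 peak is shared with FOXL2NB. Of 25 SOX and stem cell associated genes 4 were higher and 7 lower, while loess scaling gave 1 and 6 and median-ratio scaling 1 and 8. LIN28A, an RNA-binding protein of stem cells, had 21.9 and 22.4 CPM in dual-resistant libraries, against 2.14 and 1.75 CPM in cisplatin-resistant libraries (log2 3.21, SE 0.22). Control libraries had 25.0 and 21.9 CPM at LIN28A and paclitaxel-resistant libraries 3.52 and 3.48 CPM. SOX9, a progenitor factor, had 1.11 and 0.860 CPM in dual-resistant libraries, against 14.6 and 13.7 CPM in cisplatin-resistant libraries (log2 -3.31). The adhesion genes ALCAM and CD44, used as stem cell markers, were lower at -2.29 and -1.73, and ALDH1A1, an aldehyde dehydrogenase used in the same way, differed by 0.10 (adjusted p 0.889).

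Of 22 epithelial genes 4 were higher and 5 lower, and of 32 mesenchymal genes 5 were higher and 4 lower. The mesenchymal split turned to 4 and 9 under median-ratio scaling and to 4 and 8 under loess scaling. ESRP1, an epithelial splicing factor, had 11.38 and 10.96 CPM in dual-resistant libraries, against 1.35 and 0.702 CPM in cisplatin-resistant libraries (log2 2.97). KRT7, KRT8 and DSP, genes of keratin filaments and desmosomes, were lower at -2.14, -1.48 and -2.22. POSTN, a matrix protein, was lower at -2.64, and VIM, the mesenchymal filament gene, at -0.68. Of 29 collagens 4 were higher and 4 lower, with 2 and 8 under median-ratio scaling, 2 and 9 under loess scaling and 7 and 3 once regional medians were subtracted. COL11A1, a fibrillar collagen, was higher by 2.46, and COL7A1, the anchoring fibril collagen, was lower at -2.20. Of 28 integrins and laminins 6 were higher and 9 lower, including LAMB3, a chain of laminin-332 (-1.68). That split became 2 and 9 under loess scaling and 5 and 5 once regional medians were subtracted. Of 18 cadherins 5 were higher and 3 lower, while loess scaling gave 3 and 3 and subtracting regional medians 3 and 5. CDH2, N-cadherin, was higher by 1.17 but differed by -0.06 once its regional median on chromosome 18 was subtracted.

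Of 19 neuronal and synaptic genes 6 were higher and 2 lower, with a median of 0.29, and the other scalings gave 6 higher and 3 to 4 lower. Subtracting regional medians gave 4 and 3. Besides NTS the higher ones were CNTN1, an axonal adhesion protein, with 11.005 and 14.831 CPM in dual-resistant libraries, against 0.450 and 1.17 CPM in cisplatin-resistant libraries (log2 3.40, SE 0.37), and UNC13C, a factor of vesicle priming (2.39). UNC13C had 6.31 and 7.63 CPM in dual-resistant libraries and 14.6 and 20.1 CPM in control libraries. GRIK2 and GRIN2A, glutamate receptor subunits, were higher by 1.38 and 1.16, and KIF1A, a motor of axonal transport, by 1.14. SYT1, the calcium sensor of synaptic vesicles, was lower at -2.10. Of 31 nuclear receptors 4 were higher and 8 lower, with 2 and 9 under median-ratio scaling and 5 and 3 once regional medians were subtracted. RARB, a retinoic acid receptor, had 32.8 and 28.5 CPM in dual-resistant libraries, against 9.12 and 7.37 CPM in cisplatin-resistant libraries (log2 1.84), and 71.0 and 66.9 CPM in paclitaxel-resistant libraries. Of 13 xenobiotic P450 and AHR genes 1 was higher, CYP2S1 (1.24, a peak shared with an uncharacterised locus), and 3 were lower, led by AHR, the receptor that senses aromatic compounds (-2.60). Of 18 housekeeping genes 4 were higher and 4 lower, none by 2-fold, and median-ratio scaling gave 3 and 8.

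Markers of the line and of other cell types were read at their promoter peaks. The haematopoietic marker CD3E had no listed start, so its peak lies at an end of its span and may not be its promoter. EPCAM, an epithelial surface marker, had 14.5 and 14.8 CPM in dual-resistant libraries, against 10.02 and 12.86 CPM in cisplatin-resistant libraries (log2 0.35, adjusted p 0.131). The other ovarian carcinoma and epithelial markers KRT18 (log2 0.63), CDH1 (0.79), FOLR1 (0.64) and WT1 (-0.25) were not called either, and KRT8 was lower at -1.48. PAX8, a marker of ovarian carcinoma, was weak, with 1.11 and 2.26 CPM in dual-resistant libraries, against 4.28 and 3.74 CPM in cisplatin-resistant libraries (adjusted p 0.0376), and KRT19 and MUC16 had no tested promoter peak. Of 11 fibroblast marker promoters 0 were higher and 2 lower, PDGFRB and POSTN, and 2 and 2 once regional medians were subtracted. Their summed level was 82.1 and 82.5 CPM in dual-resistant libraries, against 110 and 106 CPM in cisplatin-resistant libraries. Of 12 haematopoietic markers 3 were higher and 2 lower, which became 1 and 3 under median-ratio scaling and 1 and 1 under loess scaling, with sums of 138 and 135 CPM in dual-resistant libraries, against 133 and 135 CPM in cisplatin-resistant libraries. Of 4 endothelial markers 1 was higher and 1 lower, with sums of 27.1 and 22.9 CPM in dual-resistant libraries, against 31.6 and 24.8 CPM in cisplatin-resistant libraries. FAP, PECAM1, CDH5, VWF, PTPRC and LCP1 had no tested promoter peak. The part of these markers in the results was not tested.

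Differences clustered along chromosomes. On chromosome X 39.8% of 3622 peaks were higher in dual-resistant cells and 12.5% lower, and on chromosome 18 35.2% of 2414 peaks were higher and 16.4% lower. On chromosome 8 17.6% of 7125 peaks were higher and 31.8% lower, and on chromosome 6 17.6% of 7549 peaks were higher and 28.9% lower. Chromosome 17 also leaned lower, with 10.9% of 8552 peaks higher and 22.1% lower. It holds the lower promoters of GNGT2, SLFN11, SLFN12, SOX9 and HOXB7, so these losses share a chromosome. Among 595 stretches of 5 Mb with at least 20 tested peaks, 29 had a median log2 difference above 1 and 14 below -1. The highest median, 2.16, was at 60 to 65 Mb of chromosome 16, where 62 of 77 peaks were higher and 12 lower, and the median level was 4.95 and 5.27 CPM in dual-resistant libraries, against 0.675 and 0.702 CPM in cisplatin-resistant libraries. The lowest, -1.86, was at 25 to 30 Mb of chromosome 5, where 91 of 130 peaks were lower and 25 higher. At 30 to 35 Mb of chromosome 18, 134 of 194 peaks were higher, and at 120 to 125 Mb of chromosome 6, 56 of 76 were lower. DNA copy number was not measured here, so it and accessibility cannot be told apart over such stretches. After the median of each stretch was subtracted, 28985 peaks were called higher and 29395 lower.

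**Figure D4:**
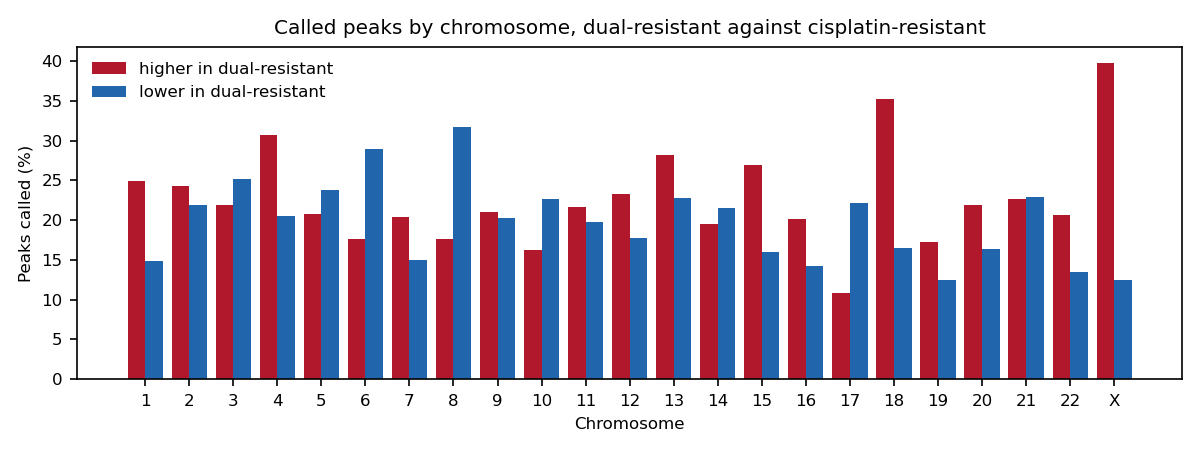
Bars give the percentage of tested peaks on each chromosome called higher or lower in dual-resistant cells. Chromosome X has 39.8% higher and 12.5% lower, and chromosome 8 has 17.6% higher and 31.8% lower.

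The difference between dual-resistant and cisplatin-resistant cells was set beside that between paclitaxel-resistant and control cells, which shares no library with it and also separates a paclitaxel-resistant line from one without that resistance. Paclitaxel-resistant cells had 11525 peaks called higher and 14557 lower than control cells. The 2 sets of log2 differences correlated at 0.11 across peaks, which share the peak set and are not replicates. An interaction contrast in the same fit called 54425 peaks (34.3%) and 5149 promoters (33.3%) as differing between the 2 comparisons. CTNNA3 rose in both, by 5.02 against cisplatin-resistant cells and with an interaction that missed the threshold (adjusted p 0.227), and the interaction at BOC also missed it (adjusted p 0.593). At JUN the interaction was -1.83 and at MYC -1.63, and at DUSP6 it was 2.02.

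Sequence at the starts differed between the promoters that gained and lost. Of 12314 promoters with RefSeq sequence, 626 were at least 2-fold higher and 625 at least 2-fold lower. TGANTCA, searched on both strands, was in 6.55% of the higher, 11.8% of the lower and 4.56% of all windows. The window lay wholly inside the peak for 383 of the higher, 370 of the lower and 8837 of all promoters, and there the shares were 3.92% of the higher, 14.6% of the lower and 4.01% of all. Windows of changed promoters held fewer CpG dinucleotides, with a median of 12 in the higher, 17 in the lower and 25 in all. Among windows with fewer than 20 CpG, TGANTCA was in 7.60% of the higher, 17.5% of the lower and 8.18% of all. TAATTA was in 8.09% of the higher, 4.45% of the lower and 4.52% of all windows with fewer than 20 CpG. The other letters searched were GGAATG for TEAD, TATAAA for the TATA box, AGATAA for GATA, CCAAT for NF-Y, GGGCGG for Sp, CCGGAAG for ETS, TGACGTCA for CRE and TGANNNNGC for the antioxidant response element core. None of these contains TGANTCA or TAATTA, but TGANNNNGC can share bases with TGANTCA. TGANNNNGC was in 38.0% of the higher, 45.4% of the lower and 42.8% of all windows. Sp letters were in 45.2% of the higher, 54.9% of the lower and 68.7% of all windows, and ETS letters in 5.91% of the higher, 9.60% of the lower and 17.5% of all. Both hold a CpG, so these shares also follow CpG content. Among windows with 20 CpG or more, Sp letters were in 79.8% of the higher, 84.4% of the lower and 82.7% of all. ETS letters were there in 8.72%, 12.8% and 20.7%. Among windows with fewer than 20 CpG the shares were 26.7%, 29.7% and 38.7% for Sp and 4.41%, 6.82% and 10.5% for ETS. These shares are descriptions with no test, and the promoters were selected on the values compared.

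**Figure D5:**
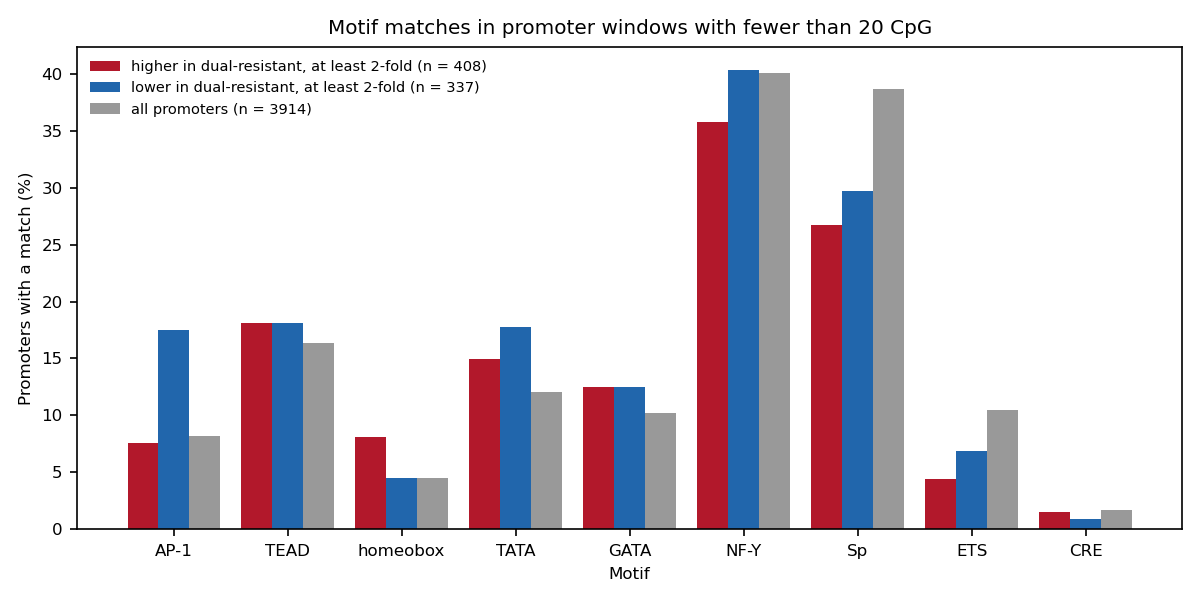
Bars give the percentage of promoter windows with fewer than 20 CpG that hold each motif shown, for promoters at least 2-fold higher, at least 2-fold lower and all promoters. AP-1 letters were in 7.60% of the higher and 17.5% of the lower windows, and homeobox letters in 8.09% of the higher and 4.45% of the lower windows.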

How the data were processed

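The authors deposited a matrix of CPM values for 8 ATAC-seq libraries over 159451 consensus peaks, per the file headers, and Bowtie2, Picard, MACS2 and hg38 stand in the submitters' processing notes with roles and versions not given in the sources used here. CPM sums to the same total over the peaks of each library, so a change shared by all peaks cannot be seen. The CPM values were whole multiples of 1 read within 0.01 read for 100% of values, and reads in peaks were 8087535 and 9304798 in dual-resistant, 8885297 and 8552256 in cisplatin-resistant libraries. Replicate libraries differed beyond sampling noise, with a chi-square per degree of freedom of 2.22 (dual-resistant) and 2.14 (cisplatin-resistant) where a peak held 20 reads or more in the pair. PCR reads carry no molecular identifiers here, so floors hold for counting error only.

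On the scale log2(CPM + 0.5), limma (3.58.1, R 4.3.3) with a variance trend was fitted to all 4 groups, with group as the only term. The fit had 4 residual and 98.5 prior degrees of freedom, so each SE leaned mainly on the fitted trend. Fold changes on this scale understate the change of weak peaks. A peak was called where its Benjamini-Hochberg adjusted p, over 158698 peaks, fell under 0.05. edgeR (4.0.16) was run on the recovered reads as an alternative, and the code was tested on simulated data.

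Promoters were placed with RefSeq tables of GRCh38, by the listed start for 12313 genes and by either end of the span for 3151 genes, and 13948 distinct peaks served 15464 genes. Exons and introns were not resolved. The naming rule took the 10 largest called promoter gains and the 10 largest losses with non-overlapping libraries and at least 3 CPM in the higher group. From each gene list it took the 3 called members with the smallest p whose log2 difference was 1 or more in size, then the 3 genes each way with the highest number of called distal peaks, the 5 strongest peaks each way, and a few fixed drug resistance and signalling genes. Other list members named in the text were chosen after their values were seen. Some named genes are not reported here. The members and gene lists were chosen with earlier results of these data known.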

Additional observations from a re-analysis of the deposited data

Results flagged for a closer look

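The interaction contrast asked whether the difference between dual-resistant and cisplatin-resistant cells departed from that between paclitaxel-resistant and control cells, and limma called it at 54425 peaks. The interaction is the dual-resistant minus cisplatin-resistant log2 difference minus the paclitaxel-resistant minus control one.

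The promoters with the largest gains and losses were chosen for the dual-resistant minus cisplatin-resistant difference, which is the first term of the interaction. The choice favours an interaction of the same sign, so these values are descriptions and not tests. Among promoters with the largest gains the interaction was 4.87 at ZNF69, 4.58 at COL6A3, 4.10 at CDH7, 1.84 at C5orf52, 1.65 at NTS, 1.38 at HAPLN1 and 0.95 at MEI4. Among promoters with the largest losses it was -5.27 at LY6K, -4.65 at ZNF559, -4.64 at ZNF572, -4.30 at SLFN12, -3.67 at H3C3, -3.35 at GNGT2 and -1.51 at IFT70A.

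Among the fixed genes the interaction was -1.93 at ABCB4, -1.83 at JUN, -1.63 at MYC, -1.02 at CDKN1A and -0.84 at TUBB3. It was 2.02 at DUSP6 and 0.99 at SLC7A11. CDKN1A had 20.8 and 22.1 CPM in dual-resistant libraries, against 20.7 and 22.8 CPM in cisplatin-resistant libraries, while it had 38.9 and 39.3 CPM in paclitaxel-resistant libraries, against 19.8 and 18.9 CPM in control libraries. DUSP6 had 6.43 and 3.82 CPM in paclitaxel-resistant libraries, against 44.2 and 41.7 CPM in control libraries.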

How the results depend on the processing

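The counts of peaks called higher and lower stayed within 1.5 times the reported ones under every alternative run. Leaving out 1 library gave 24309 to 26302 peaks higher and 25259 to 26297 lower, 2000 to 2353 promoters higher and 1946 to 2276 lower, and 44071 to 45197 interaction peaks. Median-ratio scaling moved the promoters to 1532 higher and 4530 lower. edgeR on recovered reads called 33784 peaks higher and 30822 lower. Deviations of same-numbered dual-resistant and cisplatin-resistant libraries correlated at 0.003 across peaks, so no effect shared by replicate number was seen. This value cannot show how the libraries were cultured or processed. The replicate block gave 34922 peaks higher and 31568 lower, 2962 promoters higher and 2587 lower, and 54739 interaction peaks. Of 1588 values of the 106 named genes under the alternatives, 1530 kept their direction and side of the threshold, 40 lost the call, 1 gained it and 17 changed sign. Sign changes without 1 library were ABCB4 (-0.42 to 0.049, highest without dual-resistant replicate 2), ABCG2 (-0.37 to 0.19, above 0 without either cisplatin-resistant replicate 1 or dual-resistant replicate 2), ALDH1A1 (-0.23 to 0.43; -0.23 without cisplatin-resistant replicate 1, -0.18 without dual-resistant replicate 1) and CDKN1A (-0.086 to 0.049; 0.049 without cisplatin-resistant replicate 2, 0.03 without dual-resistant replicate 1), none of them called. Under median-ratio scaling ALDH1A1 was -0.0013, ATP7B -0.081 and GSTP1 -0.068, and GSTP1 was -0.0038 under loess scaling. With the regional median subtracted, CDH2 was -0.056, MGST1 -0.34, MYC 0.18, PCDH9 -0.60, SLC31A1 0.069 and SPRED1 0.31. Calls at CD14 (-0.91 without cisplatin-resistant replicate 1, -0.69 without dual-resistant replicate 1), CD3E (0.47 without cisplatin-resistant replicate 2) and TYROBP (0.83 without dual-resistant replicate 1), counted among haematopoietic markers, were lost without these libraries and also with all libraries kept, CD14 and TYROBP under loess scaling and CD3E once the regional median was subtracted. CD3E was also lost without dual-resistant replicate 1 (0.99) and TYROBP without cisplatin-resistant replicate 2 (0.99). For these changes the cause was not tested. Levels under 0.322 to 0.390 CPM, the limit that a count of 0 allows, could not be told from 0.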

Other observations

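The zinc finger genes were chosen after their values were seen. Zinc finger genes named ZNF with a number were balanced over all calls, with 44 higher and 46 lower of 219 measured promoters on chromosome 19 (median log2 difference 0.06) and 39 higher and 39 lower of 211 on the other chromosomes. Changes of at least 2-fold were mostly losses. On chromosome 19, 3 of 219 measured ZNF promoters were called at least 2-fold higher and 36 at least 2-fold lower in dual-resistant cells, against 5.32% higher and 5.42% lower over all promoters. On the other chromosomes 3 of 211 were at least 2-fold higher and 15 at least 2-fold lower. Median-ratio scaling gave 3 higher and 36 lower on chromosome 19, and loess scaling gave 3 and 32. Zinc finger genes are near copies of each other in places, and reads shared among them were not separated.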
